A study of Mus musculus with 26 samples.

Results

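Among the Pdgfra/GFP+ cells that were sorted from the E13.5 mouse spinal cord, a mesenchymal population carried transcripts of fibrillar collagens and of the small leucine-rich proteoglycans Lum and Dcn together with few neuronal transcripts. These wells were chosen by a rule on molecule counts. A well of chip 4, 7 or 8 was kept when it held at least 1000 molecules, at least 5 molecules summed over Col1a1, Col1a2, Col3a1, Lum and Dcn, and fewer than 3 summed over the neuronal genes Snap25, Syt1, Stmn2, Rbfox3, Gad1 and Slc17a6. The rule took 69 of the 209 spinal cord wells at that depth, out of 1514 such wells in the whole series. Chip 4 gave 16 of 56 wells, chip 7 gave 28 of 74 and chip 8 gave 25 of 79. In 36 of the 69 wells no neuronal molecule was found, 23 wells held 1 and 10 wells held 2.

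The series profiled single cells by STRT-seq, which counts 5′ ends of mRNA as unique molecules, on 26 microfluidic chips of 96 wells. The spinal cord and brain embryos were of the strain Pdgfra-H2BGFP, in which a nuclear GFP is knocked in at Pdgfra so that any cell with an active Pdgfra locus, neural or not, can pass the GFP+ gate. Brain wells that passed the same rule came from 6 E13.5 chips of that strain (82 wells). P7 brain wells came from 8 chips (110 wells), 1 of the strain Pdgfra-H2BGFP and 7 of Pdgfra-cre-ERT/RCE, in which tamoxifen at E12.5 (6 chips) or P3 (1 chip) switched GFP on in cells that then expressed Pdgfra. The brain tissue was forebrain, both sexes were pooled, and the chip is the replicate here. Nothing in the labels says that chips came from separate litters, so p-values measure the spread between chips.

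The leptomeninges are the inner membranes around the brain and spinal cord, the pia and the arachnoid. Their fibroblasts build the collagen and laminin sheet on which radial glia end, and they secrete retinoic acid, Cxcl12 and insulin-like growth factors towards the neural tissue. Forebrain meninges derive largely from neural crest and those of the trunk from paraxial mesoderm, and position along the body axis is recorded in mesodermal and neural cells by the Hox genes.

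STRT-seq reads begin at the transcription start, so the windows just upstream of the starts are shown for Col1a2 and Col3a1, which helped to choose the wells, and for Igfbp5, Msx1 and Tbx18, which had the 3 smallest adjusted p-values between the regions. Each run holds the 150 bases before the RefSeq start of the gene, 5′ to 3′ on the gene's strand (GRCm38.p6, the mm10 assembly). Capitals mark CCAAT or TATAAA on either strand. The windows are chr6:4505468-4505617 on the plus strand for Col1a2, chr1:45311388-45311537 on the plus strand for Col3a1, chr1:72874866-72875015 on the minus strand for Igfbp5, chr5:37824586-37824735 on the minus strand for Msx1 and chr9:87731261-87731410 on the minus strand for Tbx18.
Col1a2: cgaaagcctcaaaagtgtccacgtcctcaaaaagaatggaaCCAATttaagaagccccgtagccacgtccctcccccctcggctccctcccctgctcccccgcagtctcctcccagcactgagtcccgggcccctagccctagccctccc
Col3a1: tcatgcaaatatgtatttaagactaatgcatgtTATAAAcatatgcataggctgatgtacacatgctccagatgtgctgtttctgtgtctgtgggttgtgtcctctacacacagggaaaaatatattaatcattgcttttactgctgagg
Igfbp5: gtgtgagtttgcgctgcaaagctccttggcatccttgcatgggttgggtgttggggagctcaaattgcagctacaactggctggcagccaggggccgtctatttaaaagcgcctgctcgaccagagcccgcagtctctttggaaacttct
Msx1: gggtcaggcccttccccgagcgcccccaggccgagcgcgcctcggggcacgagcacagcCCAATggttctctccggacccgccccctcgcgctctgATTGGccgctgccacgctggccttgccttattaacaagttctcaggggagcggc
Tbx18: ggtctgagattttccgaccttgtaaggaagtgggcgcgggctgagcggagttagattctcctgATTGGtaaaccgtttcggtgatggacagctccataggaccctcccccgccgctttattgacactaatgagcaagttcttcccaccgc
Col1a2 carried 1 CCAAT, from 109 to 105 bases before its start, and Col3a1 carried 1 TATAAA, from 117 to 112 bases before its start. Msx1 held a CCAAT on each strand and Tbx18 held 1 on the opposite strand. Of 32851 RefSeq promoters, 24.5% held CCAAT and 7.57% held TATAAA in the same window. Neither string was in the Igfbp5 window.

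The 5 genes of the rule are given as a description, since they chose the wells. Levels are counts per 1000000 molecules (CPM) after the member wells of a chip were summed, and since each molecule is counted once at its 5′ end they do not scale with transcript length. Col3a1, the fibrillar collagen of soft connective tissue, stood at 5516 CPM on chip 4, 5618 CPM on chip 7 and 6026 CPM on chip 8 and was found in 98.6% of the wells. Col1a2 stood at 3756, 3503 and 3945 CPM in the same order of chips and Col1a1 at 1542, 1444 and 1339 CPM. The chips were close to each other for these 3 collagens. Dcn, which binds collagen fibrils, reached 2286, 1745 and 1984 CPM, and Lum, its relative, 1488, 623 and 1369.6 CPM, lowest on chip 7. In the 70 spinal cord wells with under 5 molecules of these genes, called the wells with little collagen below, Col3a1 was at 22.1 CPM and Lum at 6.3 CPM.

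The sum of the 5 genes had a median of 58 molecules per member well and ranged from 5 to 237. Only 4 members lay at 5 to 9 molecules, 2 of them at 5 or 6, and 4 wells just outside the rule held 3 or 4. The neuronal limit cut through a denser part of the distribution. Another 70 wells held 5 or more mesenchymal molecules together with at least 3 neuronal ones, with a median of 42.5 mesenchymal and 8 neuronal molecules. These mixed wells were 0 on chip 4, 30 on chip 7 and 40 on chip 8, and they were deeper (median 6765.5 molecules) than the members (4650) and the wells with little collagen (4157.5). Of the mixed wells, 10 held exactly 3 neuronal molecules and 8 held 4, beside 10 members that held 2.

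**Figure D1:**
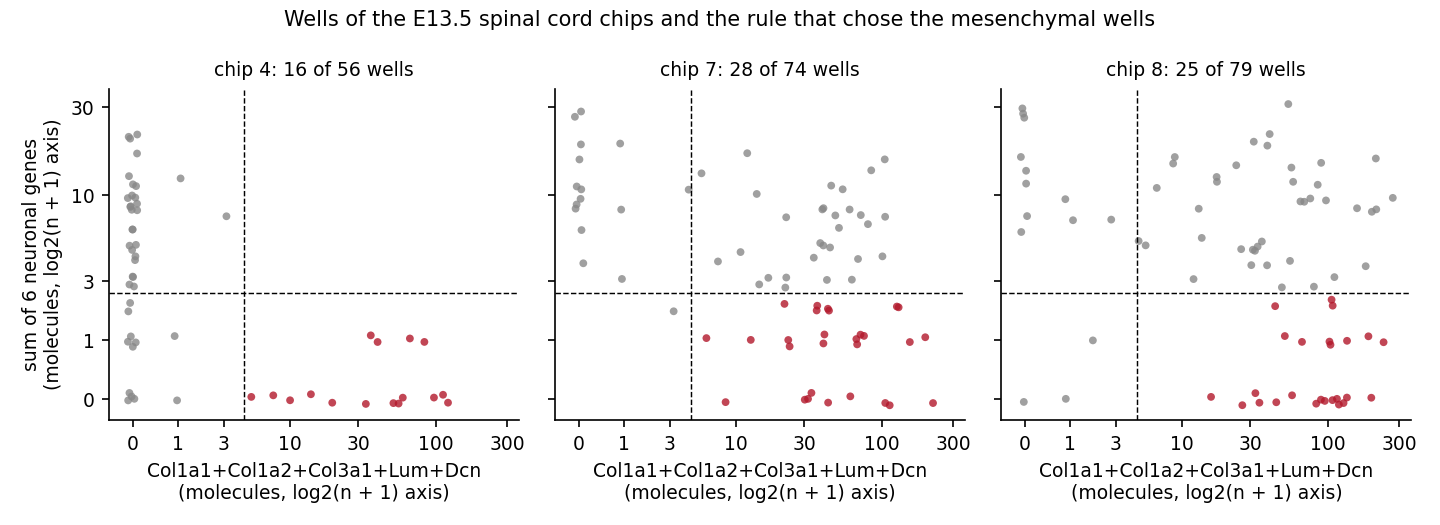
Molecules summed over the 5 mesenchymal genes (horizontal) and over the 6 neuronal genes (vertical) in each spinal cord well with at least 1000 molecules, one panel per chip, both axes as log2(molecules + 1) with slight jitter and dashed lines at the rule's limits. Red points are the members, 16, 28 and 25 on chips 4, 7 and 8. Wells high on both axes occur on chips 7 and 8 and not on chip 4.

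Because chips 7 and 8 held the mixed wells and chip 4 did not, the neuronal signal within members is given here once. A separate list of 14 neuronal genes summed to 1034, 2032 and 1485 CPM in the members of chips 4, 7 and 8, against 10560.3 CPM in wells with little collagen and 6316 CPM in mixed wells. Of this list 13 genes were detected in members, and in brain members it had a lowest, median and highest chip value of 1180.1, 1971 and 3095 CPM. In the 36 members with no molecule of the 6 neuronal genes of the rule it was still at 1449.6 CPM, so those wells were not free of neuronal RNA. Its part in the results below was not tested.

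The label of leptomeningeal cells was checked against 24 genes of pia, arachnoid and dura, of which 21 were detected. Foxc1, a forkhead factor needed for meningeal development, was found in 68.1% of members at 345, 281 and 414 CPM on chips 4, 7 and 8. Slc6a13, a GABA and taurine transporter of leptomeningeal fibroblasts, was found in 72.5% at 327, 267 and 231 CPM and in no well with little collagen. Aldh1a2, the retinaldehyde dehydrogenase by which the meninges make retinoic acid, was found in 52.2% at 290.3, 185 and 463 CPM. All 3 were thus present on every chip and at or near 0 in the wells with little collagen, where Foxc1 stood at 9.45 CPM and Aldh1a2 at 12.6 CPM.

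Cxcl12, the chemokine that holds migrating neurons at the pial surface, was at 653, 616 and 791 CPM and in 82.6% of members. Bmp7, a meningeal BMP ligand, was at 399, 308 and 609 CPM and was not found in the wells with little collagen. Col18a1, a basement membrane collagen of the pia, was in 71% of members, and Lama1, the laminin chain of the early pial basement membrane, in 47.8%. Zic1 was in 95.7% of members at 943, 1136 and 828 CPM, but it was at 1295 CPM in wells with little collagen and so did not set the members apart. Pdgfra itself, the gene of the reporter, was found in 68.1% of members at 218, 267 and 329 CPM. Ptgds, which is abundant in mature arachnoid, Alpl and Six2 were not found in any member (0 of 365537 molecules, which allows up to 8.21 CPM), and Mgp gave 1 molecule.

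Lists that mark other sources gave from no molecule to sums of over 1000 CPM. None of 12 immune and none of 7 erythroid genes in the files gave a molecule in the members. Of 12 endothelial genes 6 were detected, with Pecam1, Cldn5 and Flt1 at 0. Sox10 was at 0, and the 9 genes of oligodendrocyte precursors summed to 236, 281 and 73 CPM on chips 4, 7 and 8, with 3 or more molecules from at least 2 genes in 3 wells. Of 13 muscle genes 3 were detected, at 54.4, 13.7 and 18.3 CPM in sum, and 4 of 11 genes of the Schwann cell list were detected, at 345, 1293 and 207 CPM in sum, where Fabp7 gave 165 molecules, 141 of them in 3 wells. The 12 neural progenitor genes summed to 3973, 4831 and 4158 CPM against 1222 CPM in the wells with little collagen, and Hes1 and Slc1a3, which mesenchyme also expresses, gave most of it. The 14 pericyte and smooth muscle genes summed to 2613, 2600.2 and 1047 CPM. The 20 cartilage, bone and tendon genes summed to 653, 1019.6 and 870.5 CPM, with Acan at 0 and Col2a1 at 127, 157 and 195 CPM, so 6 of these genes were missing, the main cartilage proteoglycan among them. This list gave 3 or more molecules, from more than 1 gene, in 47.8% of members and 8.57% of the wells with little collagen. The genes named for the label are also expressed by other fibroblasts, and no gene here separates the pia from nearby connective tissue, so the wells are called mesenchymal below.

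A matrix program ran through these wells beyond the genes of the rule. All 28 other collagen genes of the list gave at least 1 molecule, and their sum was 7638, 7157 and 8315 CPM on chips 4, 7 and 8 against 289.8 CPM in wells with little collagen. Serpinh1, the collagen chaperone of the endoplasmic reticulum, was in every one of the 69 wells at 3284, 2894 and 2983 CPM. The other steps of collagen folding were present as well, with P4hb, a subunit of prolyl hydroxylase, at 1161, 896 and 1132 CPM and Ppib, a prolyl isomerase, at 1179, 712 and 755 CPM. In total 30 of 30 genes for collagen processing were detected.

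The collagens covered several classes. Col5a2, which sets the width of type I fibrils, was in 92.8% of wells at 653, 657 and 761 CPM, and Col6a3, of the beaded microfibrils around cells, was in 84.1% at 744, 609 and 755 CPM. The sheet-forming Col4a1 was at 1687, 1546 and 1844 CPM and Col4a2 at 671, 554 and 548 CPM. Among the 16 basement membrane genes 14 were detected, led by Sparc at 2395, 1984 and 2051 CPM and Nid1, the link between laminin and collagen IV, at 581, 582 and 633 CPM. Of 35 other matrix proteins 32 were found, with Vcan, a large hyaluronan-binding proteoglycan of embryonic tissue, at 1125, 1649 and 1948 CPM, Fbn2, the embryonic fibrillin, at 708, 848 and 1229.6 CPM and Fn1, fibronectin, at 308, 561 and 913 CPM. All 3 were lowest on chip 4 and highest on chip 8.

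Of 55 transcription factors of mesenchyme 49 were detected, but their sum of 4953, 5543 and 5856 CPM on chips 4, 7 and 8 was near the 5813 CPM of the wells with little collagen. Nr2f2, a nuclear receptor of mesenchyme and veins, was in 76.8% of members at 399, 486 and 621 CPM on chips 4, 7 and 8. Prrx1, a homeobox factor of limb and connective tissue mesenchyme, was in 49.3% at 236, 151 and 225 CPM, and Twist1 was in 40.6% at 36.3, 116 and 158 CPM. Meox2, a factor of somite-derived mesenchyme, was at 54.4, 109 and 97.4 CPM. Hes1, a Notch effector that radial glia use as well, was in 98.6% of members at 2486, 2087 and 2952 CPM but at 129 CPM in the wells with little collagen, so in these chips it went with the collagen genes.

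Secreted signals of 3 families were found. Of 16 retinoid genes 14 were detected, with Stra6, the membrane receptor that takes up retinol, at 72.6, 75.3 and 103 CPM next to Aldh1a2, and the degrading enzymes Cyp26a1 and Cyp26c1 at 0. Of 28 BMP and TGF-β genes 24 were detected, and the secreted Fstl1 led them at 1506, 1806 and 1954 CPM, in 98.6% of members. Id3, a BMP target, was at 544, 465 and 414 CPM, and Tgfb2 was the most abundant TGF-β ligand at 72.6, 89 and 97.4 CPM. Of 28 WNT genes 22 were detected. The ligand Wnt6 was at 18.1, 47.9 and 85.2 CPM, 22 molecules in all, and Wnt4 at 36.3, 123 and 85.2 CPM.

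Immediate early genes, which rise when tissue is dissociated, were higher in members than in the wells with little collagen. Their sum over 12 genes was 3538, 3359.7 and 4048 CPM on chips 4, 7 and 8 and 737 CPM in the wells with little collagen, and the brain chips ran from 920 to 5798 CPM.

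The question of how these cells differed from their counterparts around the E13.5 brain was addressed by the same rule applied to both regions, so the contrast did not enter the choice of wells. Of 1421 genes that passed the filter on low counts, 5 were higher (0.352%) and 8 were lower (0.563%) in the spinal cord at an adjusted p under 0.05 (edgeR quasi-likelihood test, Benjamini-Hochberg adjustment, 3 against 6 chips). The median log2 fold change over all genes tested was -0.04. At an unadjusted p under 0.05 there were 121. All spinal cord chips carry 1 experiment number in their well names (137), and the brain chips carry 138 (chips 1, 2, 3 and 6) or 57 (chips 24 and 25), so that region and experiment cannot be told apart. The serial names of chips 7 and 8 and of brain chip 6, which held 14 mixed wells, begin alike. Those of chip 4 and the other E13.5 brain chips begin otherwise. The regions differ in this split as well, and its part was not tested. Against the brain chips of experiment 138 alone, 7 genes passed, 5 higher and 2 lower. Without the spinal cord chips that held mixed wells, chips 7 and 8, chip 4 alone was left, assumed to vary like the others, and 1 gene passed, Igfbp5.

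Of the 5 higher genes, Igfbp5 and Igf2 belong to the insulin-like growth factor system and H19 lies beside Igf2. Igfbp5, a secreted binding protein for IGF1 and IGF2 that also binds matrix, was at 3284 CPM on chip 4, 2566 CPM on chip 7 and 3451 CPM on chip 8. The 6 brain chips had a lowest, median and highest value of 23.6, 114 and 455 CPM. Every spinal cord chip was thus far above the highest brain chip, and the adjusted p was the smallest of the comparison (log2 fold change 4.43, SE 0.42, adjusted p = 4.46e-08). Igfbp5 was found in 69.6% of spinal cord members and 20.7% of brain members. In spinal cord wells with little collagen it was at 50.4 CPM, and in members with no neuronal molecule at 3598 CPM.

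Igf2, the main fetal growth ligand of this family, was at 3556, 3483 and 4249 CPM on chips 4, 7 and 8 against 1176, 1723 and 1971 CPM (lowest, median, highest) in the brain, with no overlap (log2 fold change 1.16, SE 0.27, adjusted p = 0.026). H19, the imprinted noncoding RNA that lies beside Igf2 and is made from the other parental copy (H19 at chromosome 7, 142575529 to 142578143, and Igf2 at 142650766 to 142666816, GRCm38), was at 1197, 1711 and 1747 CPM against 304, 577 and 952 CPM in the brain. The groups did not overlap here either (log2 fold change 1.46, SE 0.33, adjusted p = 0.0234). Both genes came close to the limit, and Igf2 lost its call in 8 of 19 and H19 in 6 of 19 alternative fits.

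The other tested genes of this system did not pass. Igfbp2 was at 2177, 1765 and 1966 CPM against a brain range of 768 to 2991 CPM (log2 fold change 0.49, SE 0.32, adjusted p = 0.849). Igfbp4 was at 489.9, 452 and 505 CPM against 304 to 1223 CPM (log2 fold change -0.32, SE 0.37, adjusted p = 0.939). The receptor genes overlapped with the brain as well, with Igf1r at 145, 308 and 146 CPM (log2 fold change -0.63) and Igf2r, which clears IGF2, at 163, 294 and 183 CPM (0.47). Over the whole list of 44 growth factor and receptor genes, 38 were detected and 15 passed the filter. Of these 3 were higher and 1 was lower, against 0.352% and 0.563% of all genes tested, with a median of -0.32. Of 3 retinoid, 4 BMP and TGF-β and 1 WNT gene tested, 0 passed, which for so few genes is near the shares over all genes.

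Agps, an enzyme of ether lipid synthesis in peroxisomes, was the fourth gene, at 308, 328 and 493 CPM against 0, 83.6 and 131 CPM in the brain (log2 fold change 2.42, SE 0.55, adjusted p = 0.0232). It did not overlap between the regions, and it lost its call in 4 of 18 alternative fits.

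**Figure D2:**
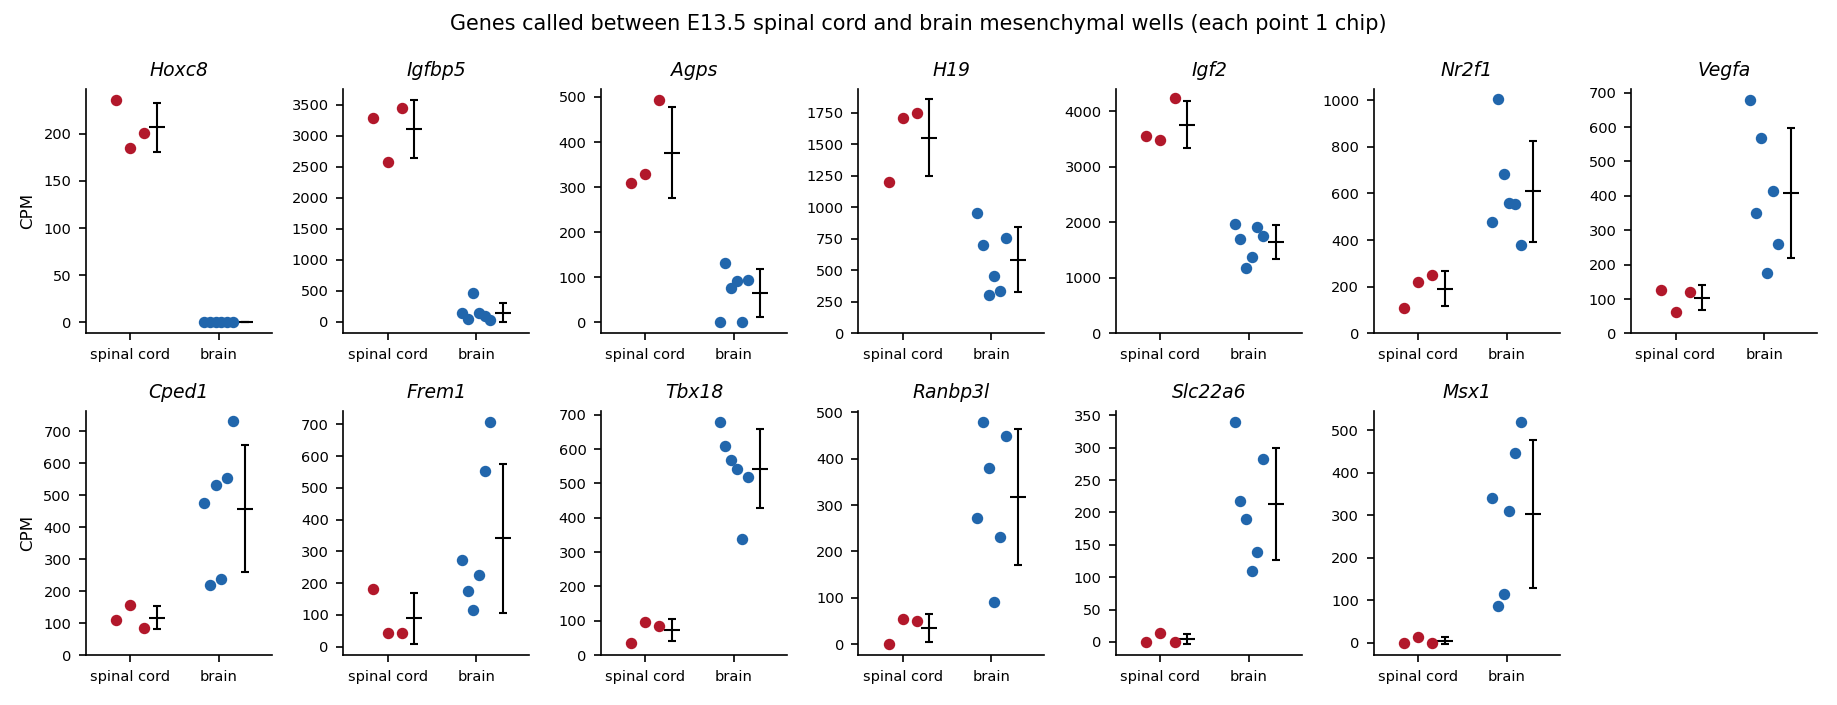
CPM of the 13 genes that passed the test between E13.5 spinal cord and E13.5 brain members, one panel per gene, with each chip as a point and mean ± SD as a bar (3 spinal cord and 6 brain chips). The 5 genes higher in the spinal cord and 7 of the 8 lower ones have no overlap between the regions, and Frem1 overlaps. The genes were chosen by the test on these same chips, so the lack of overlap is no further support.

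The fifth gene was Hoxc8, a trunk member of the HoxC cluster (chromosome 15, 102990607 to 102994111, GRCm38). It was at 236 CPM on chip 4, 185 CPM on chip 7 and 201 CPM on chip 8 and at 0 on all 6 brain chips (adjusted p = 0.00766, edgeR). Against the floor of 3 molecules over all brain members this was at least 22.4-fold higher. It was found in 36 of the 69 wells, 6, 17 and 13 of them on chips 4, 7 and 8. Hoxc8 was the only one of 27 detected Hox genes to pass the filter on low counts, so the cluster genes were read in the fit without that filter. There 13738 genes were tested, 38 were higher (0.277%) and 12 lower (0.0873%), and 12 of the 27 Hox genes were among the higher ones. Brain members held almost no Hox molecule, so Hoxc8 and the other Hox genes entered both fits through the spinal cord members. They could hardly come out otherwise than higher, and the count of 12 is a description. The median over all genes of the unfiltered fit was 0.19.

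Those 12 were Hoxa5, Hoxa7, Hoxa9, Hoxb2, Hoxb3, Hoxb4, Hoxb5, Hoxb8, Hoxb9, Hoxc4, Hoxc8 and Hoxc9. Of all 39 Hox genes, brain members gave 1 molecule, of Hoxb9 on chip 25, and P7 brain members gave none. Groups 11 to 13 of the clusters gave no molecule in the spinal cord members either. Hoxb5 stood at 90.7, 260.0 and 140.0 CPM on chips 4, 7 and 8, at least 20.2-fold above the brain floor (adjusted p = 3.99e-06). Hoxb4 stood at 109, 260.0 and 140.0 CPM and Hoxa5 at 72.6, 178 and 207 CPM, both with 0 in the brain. Summed over the family, the members held 1469.6, 2244 and 1644 CPM, and 60 of 69 wells had at least 3 Hox molecules from at least 2 genes, against 0 of 82 in the brain and 0 of 110 at P7.

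Neural cells of the cord express Hox genes as well, and the part of such RNA in these wells was not tested. The family sum was 5082 CPM in wells with little collagen, 2959 CPM in mixed wells and 1935 CPM in members without a neuronal molecule. Hoxa5 was at 633 CPM in wells with little collagen against 208 CPM in members without a neuronal molecule, and Hoxb9 at 595 CPM against 150.2 CPM. Hoxc8 was at 189 and 167 CPM and Hoxa7 at 31.5 and 52 CPM in the same order. The wells without a neuronal molecule of the rule still held the other neuronal genes given above. Hoxa7 rested on few molecules, since 3 molecules make 9.45 CPM in the first and 17.3 CPM in the second of these sets, so its direction is not read. By these values Hoxc8 lay near its level in the wells with little collagen, and Hoxa5 and Hoxb9 lay well below theirs. This contrast of wells within chips is a description and was not tested.

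**Figure D3:**
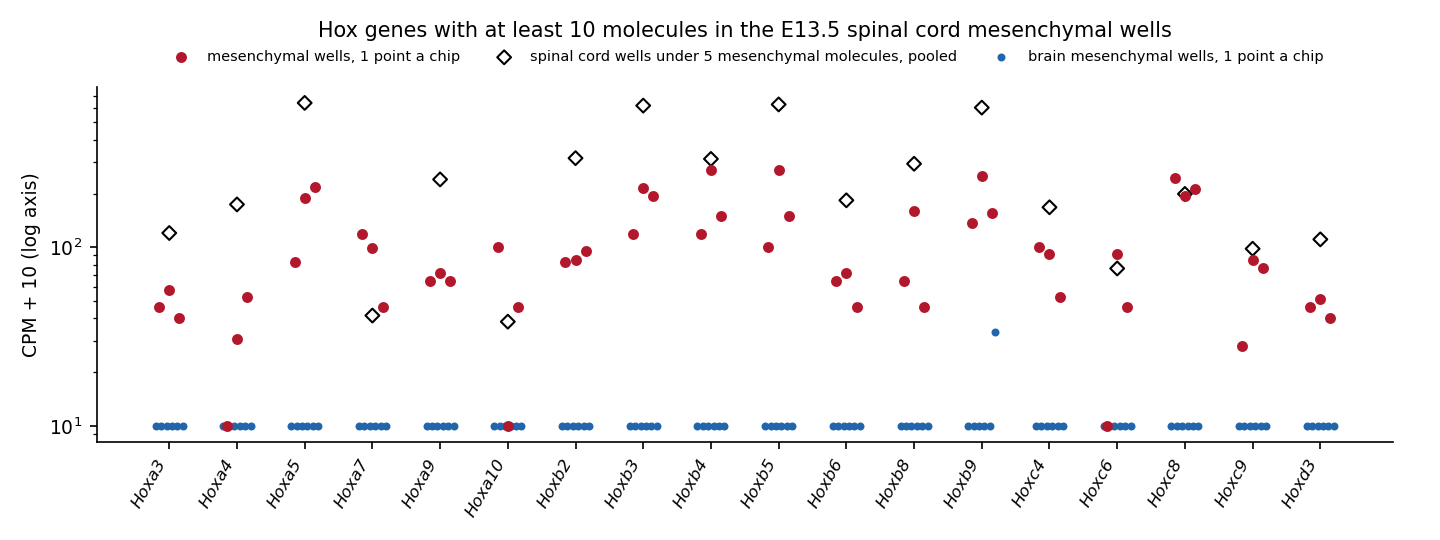
Level of each of 18 Hox genes with at least 10 molecules in the members, as CPM + 10 on a log axis. Red points are the 3 spinal cord member chips, blue points the 6 brain member chips and diamonds the pooled spinal cord wells with under 5 mesenchymal molecules. Brain chips sit at the floor for all genes but Hoxb9, where 1 chip held 1 molecule.

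Transcription factors of the forebrain and of head mesenchyme were rare in the spinal cord members. Of a list of 20, 2 were detected in spinal cord members and the sum was 36.3, 0 and 6.09 CPM, against 378, 756 and 1613 CPM (lowest, median, highest) in the brain. In the unfiltered fit 16 of them were tested and 3 were lower, against 0.0873% of all genes of that fit. All but the 2 detected ones entered that fit through brain members alone and could only come out lower. Dlx1 had 0 molecules in the spinal cord members and 37.9, 92.8 and 479.5 CPM on the brain chips, at least 15.2-fold lower (adjusted p = 0.000633). Dlx2 was at least 21.4-fold lower, also from 0 molecules. Both are expressed by forebrain neural progenitors and young neurons, and neural genes were present in brain members. Sox2, of neural progenitors, was in 30.5% of brain members and 5.8% of spinal cord members, and its part in these differences was not tested.

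Among the 8 genes that were lower in the spinal cord, transcription factors of meningeal and cranial mesenchyme came first. Msx1, a homeobox factor of neural crest and of head mesenchyme, was at 0, 13.7 and 0 CPM on chips 4, 7 and 8, 2 molecules in all. The 6 brain chips had 87.2, 325 and 519 CPM (lowest, median, highest). The pooled level was higher in the brain by a ratio of 60.9 (exact 95% interval 16.5 to 509), with an adjusted p of 0.000151 in the edgeR fit. Msx1 entered that fit through the brain members and could hardly come out otherwise than lower, so its call is a description. Tbx18, a T-box factor of meninges, pericytes and paraxial mesoderm, was at 36.3, 95.8 and 85.2 CPM against 338, 555 and 679.7 CPM (log2 fold change -2.75, SE 0.41, adjusted p = 0.000151). It was still found in 18 of 69 spinal cord wells, where Msx1 was found in 1, yet every spinal cord chip was below every brain chip.

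Nr2f1, a nuclear receptor with graded expression in the forebrain, was at 109, 219 and 249.6 CPM against 378, 556 and 1003 CPM (log2 fold change -1.60, SE 0.39, adjusted p = 0.0413). Its relative Nr2f2 did not pass, at 399, 486 and 621 CPM against a range of 261 to 1100.3 CPM (log2 fold change -0.39, SE 0.38, adjusted p = 0.937). Of 55 mesenchymal transcription factor genes, 49 were detected and 13 passed the filter. Of these 0 were higher and 3 lower, against 0.352% and 0.563% of all genes tested. Msx1, which entered the fit through the brain members, was among the lower ones. Foxc1 (log2 fold change 0.36, SE 0.38, adjusted p = 0.939) and Zic1 (log2 fold change -0.01, SE 0.33, adjusted p = 0.996) were among those that did not pass. The median of the 13 was -0.01, close to that of all genes.

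Of the 15 tested genes of the transport and barrier list 2 were lower, Slc22a6 and Ranbp3l, against 0.563% of all genes tested. Slc22a6, an organic anion transporter of the developing leptomeninges, gave 2 molecules on chip 7 and none on chips 4 and 8. The brain chips had 109.5, 204 and 339.8 CPM, and the pooled level was higher in the brain by a ratio of 29.4 (exact 95% interval 7.75 to 249) (adjusted p = 0.00978, edgeR). Slc22a6 entered the fit through the brain members and could hardly come out otherwise than lower, so its call is a description. Ranbp3l, a nuclear export factor for Smad proteins, was at 0, 54.7 and 48.7 CPM against 91.3, 326 and 479.5 CPM (log2 fold change -2.85, SE 0.64, adjusted p = 0.0232). Both lost their calls when brain chips 24 and 25 were left out, Ranbp3l with a log2 fold change of -2.63 and Slc22a6 with -4.72.

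No other member of the transport and barrier list of 41 genes passed. Of the list, 29 were detected, 15 passed the filter, 0 were higher and 2 lower, with a median log2 fold change of -0.70. Slc6a13 was at 327, 267 and 231 CPM against a brain range of 184 to 472 CPM (log2 fold change -0.28, SE 0.38, adjusted p = 0.962). Gja1, the main gap junction protein of leptomeningeal cells, was at 508, 1040.1 and 1102 CPM against 1009.9 to 1859 CPM (log2 fold change -0.74, SE 0.33, adjusted p = 0.519). Apod, a lipocalin of the arachnoid, was at 489.9, 192 and 164 CPM against 491 to 1767 CPM, where the lowest brain chip stood just above the highest spinal cord chip, and did not pass (log2 fold change -1.60, SE 0.43, adjusted p = 0.0908).

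The last 3 lower genes were Vegfa, Cped1 and Frem1. Vegfa, the angiogenic growth factor, was at 127, 61.6 and 122 CPM against 176, 382 and 679.7 CPM (log2 fold change -1.91, SE 0.47, adjusted p = 0.0413) and lost its call in 12 of 17 alternative fits. Cped1, a gene of little known function, was at 109, 157 and 85.2 CPM against 218, 503 and 732 CPM (log2 fold change -1.97, SE 0.45, adjusted p = 0.0232). Frem1, a basement membrane protein, was at 181, 41.1 and 42.6 CPM against 114, 248 and 708 CPM, with chip 4 within the brain range (log2 fold change -2.34, SE 0.59, adjusted p = 0.0469). Cped1 lost its call in 9 of 18 alternative fits, Frem1 in 11 of 18, Nr2f1 in 11 of 19 and Ranbp3l in 8 of 17.

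Apart from Frem1, which was in none of the lists, the matrix genes gave no call. In the region fit 0 of 13 other collagens, 0 of 8 basement membrane genes, 0 of 12 matrix proteins and 0 of 9 collagen processing genes passed in either direction. Of all genes tested 0.352% were higher and 0.563% lower, so the absence of calls in lists this small is near that share. It does not show that the matrix was alike. Col4a1 was at 1687, 1546 and 1844 CPM against a brain range of 1515 to 3263 CPM (log2 fold change -0.56, SE 0.31, adjusted p = 0.69), and Serpinh1 differed by 0.13 on the log2 scale with an SE of 0.30. Aldh1a2 was at 290.3, 185 and 463 CPM against 0 to 408 CPM and was in 52.2% of wells against 14.6%, but with this spread it did not pass (log2 fold change 1.63, SE 0.61, adjusted p = 0.401). In the unfiltered fit Col8a1, a short-chain collagen of vessel walls and cornea, was the only collagen called higher. This was 1 of 28 other collagens, against 0.277% of all genes of that fit. Col8a1 entered that fit almost only through the spinal cord members and could hardly come out otherwise than higher, so its call is a description. It was at 181, 95.8 and 183 CPM with 2 molecules in the brain members, a ratio of 24.8 (exact 95% interval 6.54 to 210.1) (adjusted p = 0.000649, edgeR).

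Igfbp5 was uneven among the spinal cord wells. It was found in 7 of 16 wells on chip 4, 19 of 28 on chip 7 and 22 of 25 on chip 8, with up to 64 molecules in 1 well. Per 10000 molecules of a well, its median was 0, 19.4 and 34.9 on the 3 chips and its maximum 150, 79.6 and 148. The highest brain well held 8 molecules. Chip 4 thus reached a CPM like that of the other chips with a smaller part of its wells, in a chip whose wells were also shallower (median 2984.5 molecules against 4442.5 and 6166).

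Across the 69 wells, Igfbp5 followed Col3a1, a gene of the rule, with Pearson's r = 0.63 on log2(value per 10000 molecules + 1). Within chips 4, 7 and 8, r was 0.75, 0.55 and 0.52. Its r with Sparc was 0.54. Cldn11, a tight junction protein of arachnoid cells, went the other way with r = -0.44, and was negative within each chip (-0.44, -0.43 and -0.60). For scale, r was 0.64 between Col1a1 and Col1a2, whose products form 1 fibril, and 0.47 between Igf2 and H19. These wells share libraries and the values share a denominator, so the correlations are a description without a test.

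**Figure D4:**
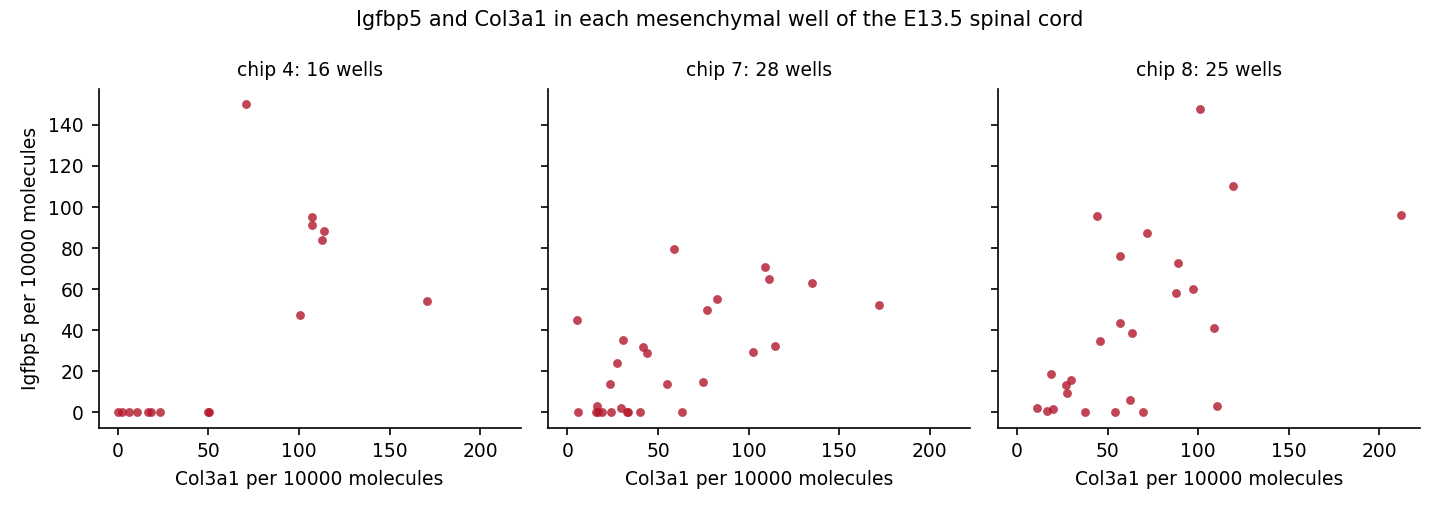
Igfbp5 against Col3a1 in each of the 69 member wells, both per 10000 molecules of the well, one panel per chip. Wells without Igfbp5 lie along the horizontal axis on every chip, and the wells highest in Col3a1 tend to be high in Igfbp5.

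A few wells carried genes of mural cells, the pericytes and smooth muscle cells of vessels, which can lie in the same membranes. Rgs5, Kcnj8 and Abcc9 together, a trio picked after their values were seen, gave 3 or more molecules from at least 2 genes in 5 of 69 members (1, 3 and 1 on chips 4, 7 and 8), in 1 of 82 brain members and in 1 of 110 P7 members. One of them held 9 molecules of Rgs5, 15 of Kcnj8 and 5 of Abcc9, and another 11, 8 and 10. Heyl, a Notch target, was at 867 CPM in these 5 wells against 33.5 CPM in the other 64, and Igfbp7 at 922 against 18.3 CPM. Col3a1 was at 3822 against 6006 CPM and Igfbp5 at 1111 against 3292 CPM. In 35 of its 43 molecules Kcnj8 came from 3 wells.

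Over the 14 pericyte and smooth muscle genes, 12 were detected. In the unfiltered fit 3 were higher than in the brain, Rgs5, Kcnj8 and Acta2, against 0.277% of all genes of that fit. Kcnj8 and Acta2, with 1 and 2 molecules in brain members, entered that fit almost only through the spinal cord. Rgs5, a regulator of G protein signalling, was at 181, 178 and 60.9 CPM against a brain range of 0 to 24.3 CPM (log2 fold change 3.73, SE 0.87, adjusted p = 0.00857). In wells with little collagen Rgs5 was at 132 CPM, within the range of the member chips. Kcnj8, a potassium channel subunit, was at 290.3, 157 and 24.3 CPM, and the pooled ratio over the brain was 39.5 (exact 95% interval 6.72 to 1596). Acta2, smooth muscle actin, was at 0, 322 and 36.5 CPM, and 25 of its 53 molecules came from 1 well. With so few wells behind them, a difference in the number of mural cells and a difference in expression cannot be told apart.

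The share of wells that passed the rule was 32.7% ± 4.72 (SD, n = 3 chips) in the spinal cord and 31.4% ± 21.7 (SD, n = 6) in the brain. The difference of 1.29 percentage points was far within the spread of the brain chips, which ran from 11.3% to 63.2% (two-sided exact permutation test, p = 0.905, where 84 splits allow 0.0238 at the smallest). Exact 95% binomial intervals for counting error were 17.3% to 42.2% on chip 4, 26.8% to 49.9% on chip 7 and 21.6% to 43.1% on chip 8. These shares are of sorted GFP+ cells that filled a well and say nothing of the tissue. They also depend on the neuronal limit of the rule. That limit left out 0, 30 and 40 wells with collagen on chips 4, 7 and 8. On brain chips 1, 2, 3, 6, 24 and 25 it left out 0, 3, 0, 14, 3 and 1. With the looser rule, which drops the limit, the difference was larger (last section), so no likeness of the regions is read from this test.

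Proliferation was read from 20 cell cycle genes after each well was thinned to 1000 molecules, and a well with at least 2 molecules was counted as cycling. This held for 0 of 16, 5 of 28 and 3 of 25 wells on chips 4, 7 and 8, and for 25 of 82 brain members. The mean over chips was 9.95% ± 9.10 (SD, n = 3) against 23.7% ± 17.5 (SD, n = 6), a difference of -13.8 percentage points that did not pass the exact permutation test (two-sided, p = 0.262). Without thinning 17 of 69 and 40 of 82 wells were counted. Mki67, a marker of all cycling phases, was at 0, 61.6 and 30.4 CPM against a brain range of 0 to 392 CPM (log2 fold change -2.65, SE 0.79, adjusted p = 0.175).

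Spinal cord members were last set beside the P7 brain members, the only postnatal mesenchymal wells with enough chips. In this comparison age, region and, for 7 of 8 chips, the mouse line change together and cannot be told apart. Of 1423 genes tested, 183 were higher (12.9%) and 203 lower (14.3%) in the E13.5 spinal cord wells (edgeR, Benjamini-Hochberg, 3 against 8 chips). P7 members also carried oligodendrocyte genes. The precursor list gave 3 or more molecules, from more than 1 gene, in 69 of 110 P7 wells against 3 of 69 spinal cord wells. Of its 8 tested genes 7 were lower in the spinal cord, against 14.3% of all genes. Genes such as Olig2 and Bcan, with 3 molecules each in the spinal cord members, entered the fit through the P7 members. They could hardly come out otherwise than lower, so this count is a description. When wells with genes of the oligodendrocyte lineage were left out, 373 genes were tested and 134 passed, of which 118 had passed before.

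Among the 12 genes with the largest differences above P7 were Igfbp5 and several imprinted genes, which were named after the values were seen and not tested as a group. Igfbp5 was at 3284, 2566 and 3451 CPM against 0, 71.7 and 509 CPM (lowest, median, highest of 8 P7 chips, log2 fold change 3.97, SE 0.47, adjusted p = 3.01e-06). H19 was above every P7 chip, which had 0, 19.5 and 456 CPM (log2 fold change 3.91, SE 0.55, adjusted p = 1.68e-05). Mest, an imprinted gene of fetal mesoderm, was at 1034, 1355 and 925 CPM against 56.6, 103 and 417 CPM (log2 fold change 2.96, SE 0.33, adjusted p = 1.7e-06). Meg3, an imprinted noncoding RNA, was at 2576, 2491 and 1942 CPM against 169.7, 332 and 581 CPM (log2 fold change 2.65, SE 0.28, adjusted p = 9.65e-07). The E13.5 brain chips ran from 276 to 1251 CPM for Mest and from 816 to 3923 CPM for Meg3, so both overlapped the spinal cord chips.

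The imprinted growth inhibitors Cdkn1c (log2 fold change 2.90) and Grb10 (2.66) were higher too. Igf2 was not, at 3556, 3483 and 4249 CPM against 4361, 6269.9 and 8258 CPM (log2 fold change -0.74, SE 0.25, adjusted p = 0.0323), below every P7 chip. Cdh11, the cadherin of loose mesenchyme, was at 889, 746 and 797 CPM against 0, 105 and 214 CPM (log2 fold change 2.72, SE 0.37, adjusted p = 1.04e-05). On the E13.5 brain chips Cdh11 ran from 218 to 952 CPM, around the spinal cord values. Sox11 (3.59) and Cd24a (3.74) were higher as well, and both are strong in the wells with little collagen, at 4817 and 1525 CPM. Hoxc8, with no molecule at P7, was at least 27.4-fold higher, and Agps (3.87) and the protocadherin Pcdh18 (2.95) complete the 12 largest differences in this direction.

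Matrix genes went both ways. Of 14 other collagens tested 5 were higher and 2 lower, and of 16 matrix proteins 6 were higher and 6 lower, against 12.9% higher and 14.3% lower over all genes. Vcan was at 1125, 1649 and 1948 CPM against 0, 203 and 523 CPM (log2 fold change 2.50, SE 0.39, adjusted p = 4.74e-05), and Fbn2 was at 708, 848 and 1229.6 CPM against 175, 223 and 409 CPM (log2 fold change 1.76, SE 0.29, adjusted p = 9.94e-05). Fn1 (log2 fold change 1.91), Fbln1 (2.48), Col11a1 (1.81) and Col5a1 (1.60) were higher with them. Lower were Eln, the elastic fibre protein (log2 fold change -2.44), Vtn, vitronectin (-2.46), and the basement membrane chains Col4a5 (-1.12) and Col4a6 (-2.88). Among 9 collagen processing genes Serpinh1 was higher by 0.65 on the log2 scale, and Pcolce and Timp3, which act outside the cell, were lower at -1.24 and -2.27.

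The transport and barrier genes were mostly lower. Of 22 tested, 14 were lower and 1 higher, against 14.3% and 12.9% of all genes, and the median log2 fold change was -2.03 against -0.01. Slc13a4, a sulphate transporter, had no molecule in the spinal cord members and 113, 379 and 898 CPM at P7, at least 47.7-fold lower (adjusted p = 7.62e-06). It entered the fit through the P7 members alone and could only come out lower. Slc6a13 was at 327, 267 and 231 CPM against 1013, 1303 and 1993 CPM (log2 fold change -2.44, SE 0.30, adjusted p = 3.15e-06), and Slc22a6, with 2 molecules, was higher at P7 by a ratio of 76 (exact 95% interval 20.7 to 633). Ptgds had no molecule in the spinal cord members, against 0, 6305 and 40520.2 CPM at P7, at least 1519-fold lower in the pooled wells. It was also at 0 on P7 chips 5 and 22, and chip 22 is the only compared P7 chip of the strain Pdgfra-H2BGFP. Of the E13.5 brain chips, chips 1 and 24 held 816 and 906 CPM and the others none. Cdh11 was the 1 higher gene of the list.

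Meningeal and signalling genes went both ways. Of 13 meningeal genes tested 4 were higher, Zic1 (log2 fold change 1.37), Foxc1 (1.19), Foxp1 (1.08) and Col18a1 (1.07), and 6 were lower, among them Tbx18 (-3.29), S100a6 (-2.69) and Cxcl12 (-1.39), against 12.9% and 14.3% of all genes. Tbx18 was at 36.3, 95.8 and 85.2 CPM against 407, 829 and 1429 CPM, below every P7 chip as it was below every E13.5 brain chip. Msx1, of the mesenchymal factors, was likewise below every P7 chip, which had 159.7, 253 and 509 CPM. Both comparisons share the spinal cord chips. Ptn, a heparin-binding growth factor, was at 635, 527 and 469 CPM against 5947, 8186 and 17629.5 CPM (log2 fold change -4.04, SE 0.36, adjusted p = 1.96e-07), and Aldh1a2 did not pass (log2 fold change 0.12, SE 0.33, adjusted p = 0.833).

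Among the 12 largest differences in the lower direction were genes of the oligodendrocyte lineage, among them Gpr17 and Bcas1. Genes with so few molecules in the spinal cord members as those given next entered the fit through the P7 members and could hardly come out otherwise than lower. Gpr17 gave 1 molecule in the members and was higher at P7 by a ratio of 366 (exact 95% interval 65.4 to 14505). Aldh1a1, a retinaldehyde dehydrogenase, gave 1 molecule and was higher at P7 by a ratio of 69.4 (exact 95% interval 12.1 to 2774), and the amino acid transporter Slc6a20a gave 1 molecule with a ratio of 132 (exact 95% interval 23.4 to 5268). The tetraspanin Cd9 (log2 fold change -5.48) and Gatm, of creatine synthesis (-5.45), were lower too, and Clec3b, Fam180a, 3110035E14Rik, Slc13a4 and Slc22a6 were among the 12 as well.

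**Figure D5:**
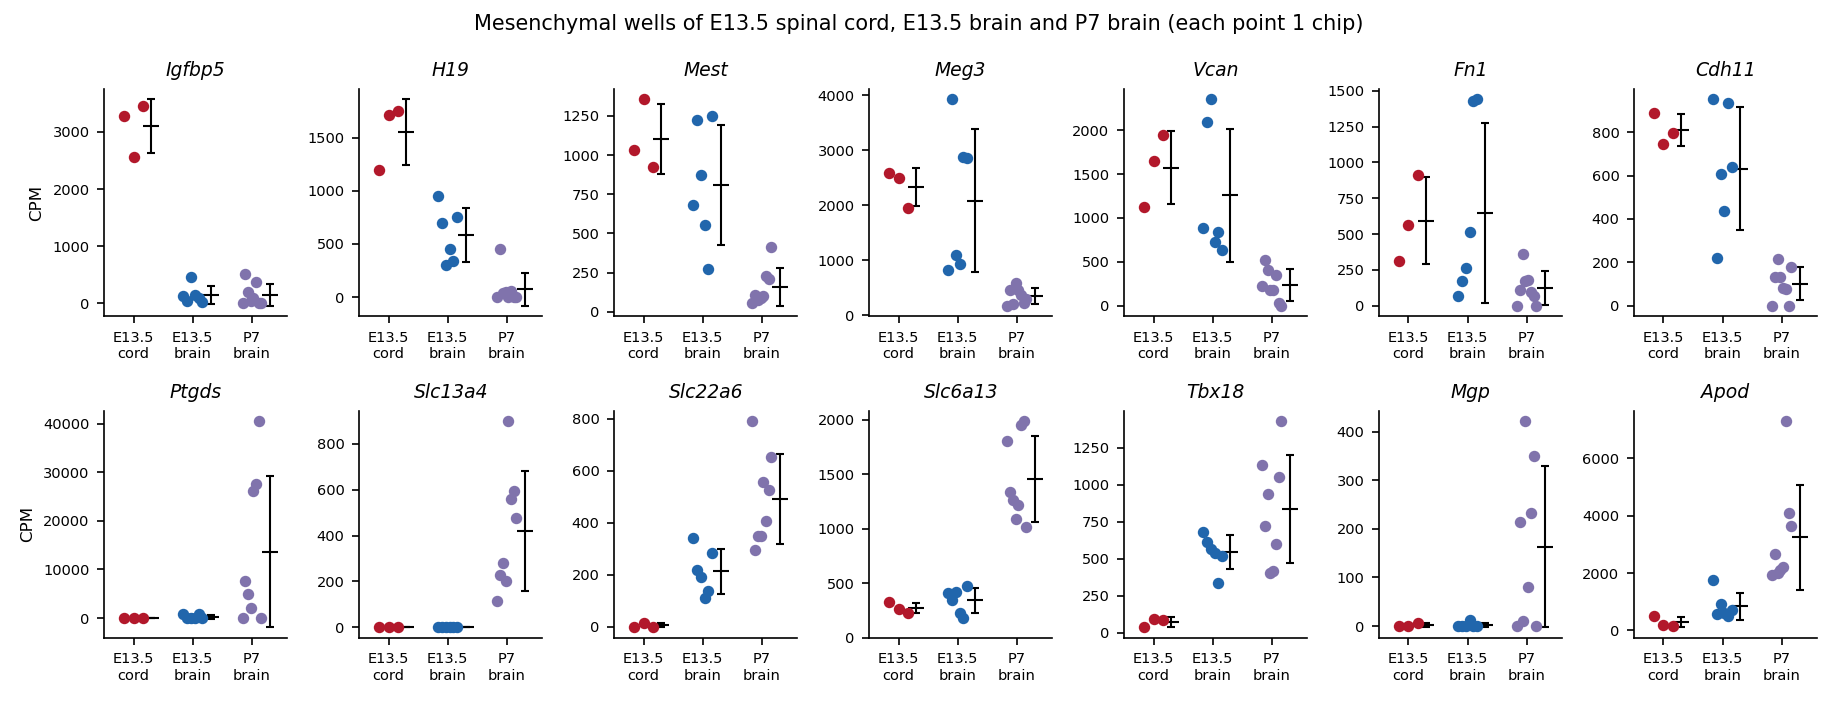
CPM of 14 genes in E13.5 spinal cord (3 chips), E13.5 brain (6 chips) and P7 brain (8 chips) mesenchymal wells, with each chip as a point and mean ± SD as a bar. The spinal cord chips lie above all brain and P7 chips for Igfbp5. H19 and Vcan have their lowest chips at P7, and Slc13a4, Slc6a13 and Ptgds reach their highest chips at P7.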

How the data were processed

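The deposited files hold, per well of 26 Fluidigm C1 chips, the count of unique molecules for each gene, as the authors made them from STRT-seq reads on mm10 (the aligner is not given in the sources used here). Rows of mitochondrial genes, spike-ins and markers were left out of totals. Member wells, and the gene lists, were chosen with earlier results of these data known. One spinal cord chip (chip 9), whose labels disagree on its age, and the P7 spinal cord chips entered no comparison. Members of a chip were summed where a chip held at least 5, and summed counts (55117 to 164278 molecules per spinal cord chip) were tested with edgeR 4.0.16 (R 4.3.3, TMM, filterByExpr, quasi-likelihood, Benjamini-Hochberg at 0.05), a fit that was tested on simulated data. Genes that passed only because 1 group was high had to differ, so counts of lists are given beside those of all genes. Named genes were called, filtered-in or defining genes of the lists, and per comparison the 12 largest non-overlapping differences in each direction. DESeq2 1.42.0, RLE scaling, no filter, other rules for wells, thinning and leaving out chips were the alternatives. Shares were compared by exact permutation over chips (scipy 1.17.1). Some genes of the lists are not reported here. Intervals and floors (3 molecules over the pooled group) cover counting error only.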

Additional observations from a re-analysis of the deposited data

Results flagged for a closer look

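In 38 groups of chip values for named genes, 6 chips stood apart from the rest of their group by Dixon's criterion, and chance gives about 1 in 20. None of the 6 was a spinal cord chip, where groups of 3 were not tested. Brain chip 3 held 455 CPM of Igfbp5, the chip nearest to the spinal cord. P7 brain chip 13 held 456 CPM of H19, and P7 brain chip 22, the only compared P7 chip of the strain Pdgfra-H2BGFP, held 179 CPM of Cd24a. P7 brain chip 5 held 452 CPM of Sox11 and 452 CPM of Clec3b. P7 brain chip 15 held 2064 CPM of Cd9.

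Mesenchymal wells by the same rule were also found on 2 spinal cord chips that entered no comparison. Chip 9, with labels that disagree on its age, gave 24 of 78 wells and carries the same experiment number as the E13.5 cord chips (137). Its members held 4488 CPM of Igfbp5, 1531 CPM of H19, 248 CPM of Hoxc8 and 172 CPM of Tbx18, with Msx1 and Ptgds at 0. Chip 23, P7 spinal cord by its label, gave 13 of 14 wells. They held 4318 CPM of Igfbp5, 2159 CPM of H19, 18.6 CPM of Hoxc8, 409.5 CPM of Tbx18, 912 CPM of Slc6a13 and 298 CPM of Ptgds, with Slc22a6 at 0. Each is 1 chip and no difference was tested.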

How the results depend on the processing

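Between the E13.5 regions 13 genes passed. The number was 25 with DESeq2 (13 higher, 12 lower), 50 without a filter on low counts, 3 after thinning, 4 with a stricter rule, 7 without brain chips 24 and 25, and, in fits chosen after seeing the data, 1 without spinal cord chips 7 and 8 and 67 against brain chips 24 and 25 only. Leaving out 1 chip gave 3 to 15, with 4 without spinal cord chip 7 and 3 without chip 8. The 13 named genes kept their direction in all 226 fits that tested them and their call in 152. Igfbp5 was called in each of 19 alternative fits. Hoxc8 was called in each of the 11 that tested it and was not tested in the others. Against P7, 386 genes passed, with 764 without the filter (485 higher, 279 lower), 115 after thinning, 239 with the stricter rule, and, chosen after seeing the data, 86 without spinal cord chips 7 and 8 and 134 without oligodendrocyte lineage wells. Leaving out 1 chip gave 238 (spinal cord chip 8) to 451. Of 443 fits for 24 named genes, 441 kept the call. The difference in member share (1.29 points) reversed to -0.59 at 1500 molecules and to -3.73 with the stricter rule, was 25.8 with the looser rule and 14.4 without brain chips 24 and 25, and ran from -2.73 to 7.65 without 1 chip. The cause was not tested. No paired analysis was possible because the chip numbers are unique across groups. DESeq2's median log2 fold change over all genes was -0.25. Fits on the P7 spinal cord or untraced P7 brain chips alone were not run, since 1 chip of each held 5 members. Shares without chips 7 and 8 were not tested.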
